A study of Mus musculus with 9 samples.

Results

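What T0901317, a synthetic LXR agonist, changed in cells that were also given oleic acid was measured over 15002 genes. These were all genes with a mean value of at least 10 over the 9 libraries, out of 28965 gene symbols. The cells were wild-type 3T3-L1, a mouse line of adipocyte precursors, grown to confluence and sampled 24 h after the start of an adipogenic cocktail of dexamethasone (0.1 µg/mL), isobutylmethylxanthine (30 µg/mL) and insulin (0.1 µg/mL), which every group received. The OA group was given 100 µM oleic acid bound to albumin. The OA_T0 group was given the same acid with 5 µM T0901317, and the MDI group the albumin vehicle alone. Each group had 3 libraries of poly(A) RNA, read as strand-specific sequence and written here as OA_1 to OA_3, OA_T0_1 to OA_T0_3 and MDI_1 to MDI_3. No group received T0901317 without oleic acid, so the values below describe the agonist on top of the acid only. The labels do not say whether the replicates were separate cultures, and the p-values may measure technical spread.

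The liver X receptors (LXR) are nuclear receptors that sense oxidised sterols, pair with retinoid X receptors and switch on genes for the export of cholesterol and the synthesis of fatty acids. The sterol regulatory element binding proteins (SREBP) are transcription factors, held in the endoplasmic reticulum and released to raise cholesterol synthesis and uptake when membrane sterol is low. The peroxisome proliferator-activated receptors (PPAR) also pair with retinoid X receptors, bind fatty acids and switch on genes of fatty acid oxidation and storage. All of them act in adipocyte precursors, which take up fatty acids and make their own as they differentiate.

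Values are the deposited normalised counts, which compare a gene between libraries but not 1 gene with another, since they are not corrected for length. Estimated depth was 17.98 to 29.3 M fragments in the 6 OA and OA_T0 libraries, and 3 fragments, taken as the floor of detection for counting error only, were worth 3.01 to 4.62 in the same unit. Log values over the tested genes correlated at 0.986 to 0.992 within a group and at 0.984 to 0.988 between OA and OA_T0, where genes are not independent replicates. OA_1 and OA_T0_3 stood apart in 1 ribosomal RNA gene, which took 0.649% and 3.06% of their values against 5.25% to 5.96% in the other 4. The mean log2 level of 31 histone genes against MDI was -0.45 in OA_1, -0.05 in OA_2 and -0.08 in OA_3, and -0.25 in OA_T0_2 against -0.05 and -0.06 in OA_T0_1 and OA_T0_3. The part of either measure in the results was not tested. Counts with and without single libraries are given below. The labelled cell type was checked on its markers: summed fibroblast markers were at 181446 to 230641 and preadipocyte markers at 69882 to 79761 in these libraries, while 4 of 8 macrophage markers were at 0 and the rest summed to 4.71 to 14.7. None of 8 macrophage and 5 endothelial markers reached the level tested, nor did the mature adipocyte markers apart from the 4 described below. Of 6 bone and cartilage markers 1 reached it, of 6 skeletal muscle markers 2 and of 5 epithelial markers 1. The bone and cartilage markers summed to 891 to 1116 and the skeletal muscle markers to 63.3 to 107 in these libraries. The epithelial Krt19 was lower in OA_T0, but did not pass with OA_1, OA_3 or OA_T0_1 left out.

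Adding T0901317 raised 1240 genes and lowered 1026 at an adjusted p below 0.05 by limma (n = 3 libraries a group), 8.27% and 6.84% of the genes tested and 15.1% in both directions. Most shifts were small, with a median fold of 1.27 among genes that rose and 1.30 among genes that fell, and 1797 of the 2266 differed by 1.5-fold or less. At least 2-fold changes in group means numbered 76 higher and 107 lower. At least 4-fold changes numbered 1 higher, the cholesterol exporter Abca1, and 16 lower, among them Angptl4, Cpt1a, Cd36, Plin2 and Trarg1. In 2220 of the 2266 genes the 3 OA_T0 libraries all lay beyond the 3 OA libraries, which over all tested genes held for 32.1% (17.1% higher and 15.0% lower). Over all tested genes the median log2 fold change was -0.0023. Leaving out 1 library took the higher and lower counts to 684 and 526 without OA_1, 757 and 635 without OA_2, 580 and 474 without OA_T0_1, and 969 and 753 without OA_T0_3. Without both OA_1 and OA_T0_3 they were 524 and 402, and 537 and 405 genes passed in each of the 9 fits that left out 1 library.

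**Figure D1:**
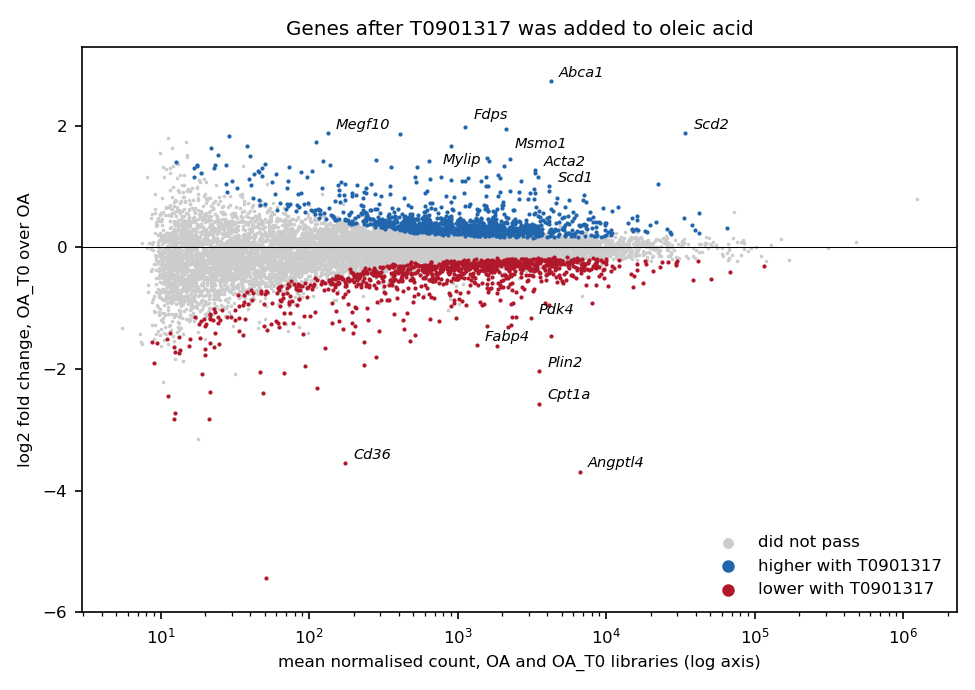
Log2 fold change of OA_T0 over OA for the 15002 tested genes against their mean normalised count on a log axis. Blue genes were higher (1240) and red genes lower (1026) at adjusted p below 0.05, and Abca1 stands highest while Angptl4 and Cd36 are among the lowest.

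Among direct LXR targets, the exporter Abca1, the ubiquitin ligase Mylip and the stearoyl-CoA desaturases Scd1 and Scd2 rose strongly, while most other listed targets did not pass. Abca1, which loads cholesterol onto lipoproteins outside the cell, stood at 1186, 1119 and 999.5 in OA and 7137, 7783 and 7104 in OA_T0. Every OA_T0 library was above every OA library, a 6.67-fold rise of the mean (log2 fold change 2.74, SE 0.08, adjusted p = 5.56e-12). Mylip, which marks lipoprotein receptors for breakdown, stood at 400.4, 444 and 446 in OA and 1346, 1514 and 1273 in OA_T0. It rose 3.20-fold with no overlap (log2 fold change 1.68, SE 0.09, adjusted p = 1.06e-08). Scd2, which makes monounsaturated fatty acids, stood at 14596, 14192 and 14591 in OA and 51273, 60830.4 and 48472 in OA_T0, and its paralog Scd1 at 2754, 2720.1 and 2720.1 in OA and 5240.4, 5999.6 and 5342 in OA_T0. Both rose without overlap, 3.70-fold and 2.02-fold (log2 fold change 1.88, SE 0.09, adjusted p = 2.21e-09 for Scd2). The desaturases are near-identical in places and may share reads, so their division is uncertain.

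In all, 4 of the 13 tested members of the LXR target list rose, 0 fell and 9 did not pass, with a median log2 fold change of 0.22. The list held 21 genes, and 8 were below the level tested. Abcg1, a second sterol exporter, stood at 8.95, 4.03 and 3.01 in OA and 24.8, 10.1 and 20.03 in OA_T0. The OA_T0 libraries were all higher but their spread was wide and the OA values lay close to the floor (log2 fold change 1.63, adjusted p = 0.0730, and 0.0465 with OA_T0_2 left out). Srebf1, the lipogenic SREBP gene and a classic LXR target, stood at 856, 751 and 969 in OA and 875, 927 and 801 in OA_T0, and its groups overlapped (log2 fold change 0.02, SE 0.10, adjusted p = 0.917). Lpcat3, a phospholipid acyltransferase, stood at 2407, 2406 and 2644 in OA and 2774, 2818 and 2622 in OA_T0 (log2 fold change 0.14, adjusted p = 0.167), and Rnf145, a ubiquitin ligase of the sterol pathway, at 4548, 4564 and 4924 in OA and 4212, 4911 and 4072 in OA_T0 (log2 fold change -0.09, adjusted p = 0.390). Their OA values were already above those in MDI, which were 1389, 1504 and 1599 for Lpcat3 and 2479, 2466 and 2567 for Rnf145. The count of members lower was 1 without OA_T0_2.

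Neither LXR gene passed the test. Nr1h2, encoding LXR beta, stood at 809.8, 771 and 906 in OA and 872, 898 and 761 in OA_T0, with groups that overlapped (log2 fold change 0.02, SE 0.08, adjusted p = 0.875). Nr1h3, encoding LXR alpha, stood at 63.8, 61.7 and 60.2 in OA and 65.2, 59.3 and 32.4 in OA_T0, where only OA_T0_3 was low (log2 fold change -0.30, SE 0.25, adjusted p = 0.457). Of 11 tested receptors and coregulators 0 rose and 1 fell (9.09%, near the 6.84% of all genes). This was the corepressor Nrip1, from 1318, 1315 and 1177 to 1045, 1046 and 995 (log2 fold change -0.30, adjusted p = 0.00539). The lower count was 2 without OA_T0_2. T0901317 is also known to bind the farnesoid X and pregnane X receptors, whose genes Nr1h4 and Nr1i2 were below the level tested. Whether it acted through them was not tested. In a list of other receptors bound by T0901317 and their targets, the 4 tested members, Nr1i3, Rora, Abcb1a and Abcb1b, did not pass. The receptor genes Nr1i3 and Rora thus reached the level tested. Their own RNA does not show whether T0901317 acted through them.

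**Figure D2:**
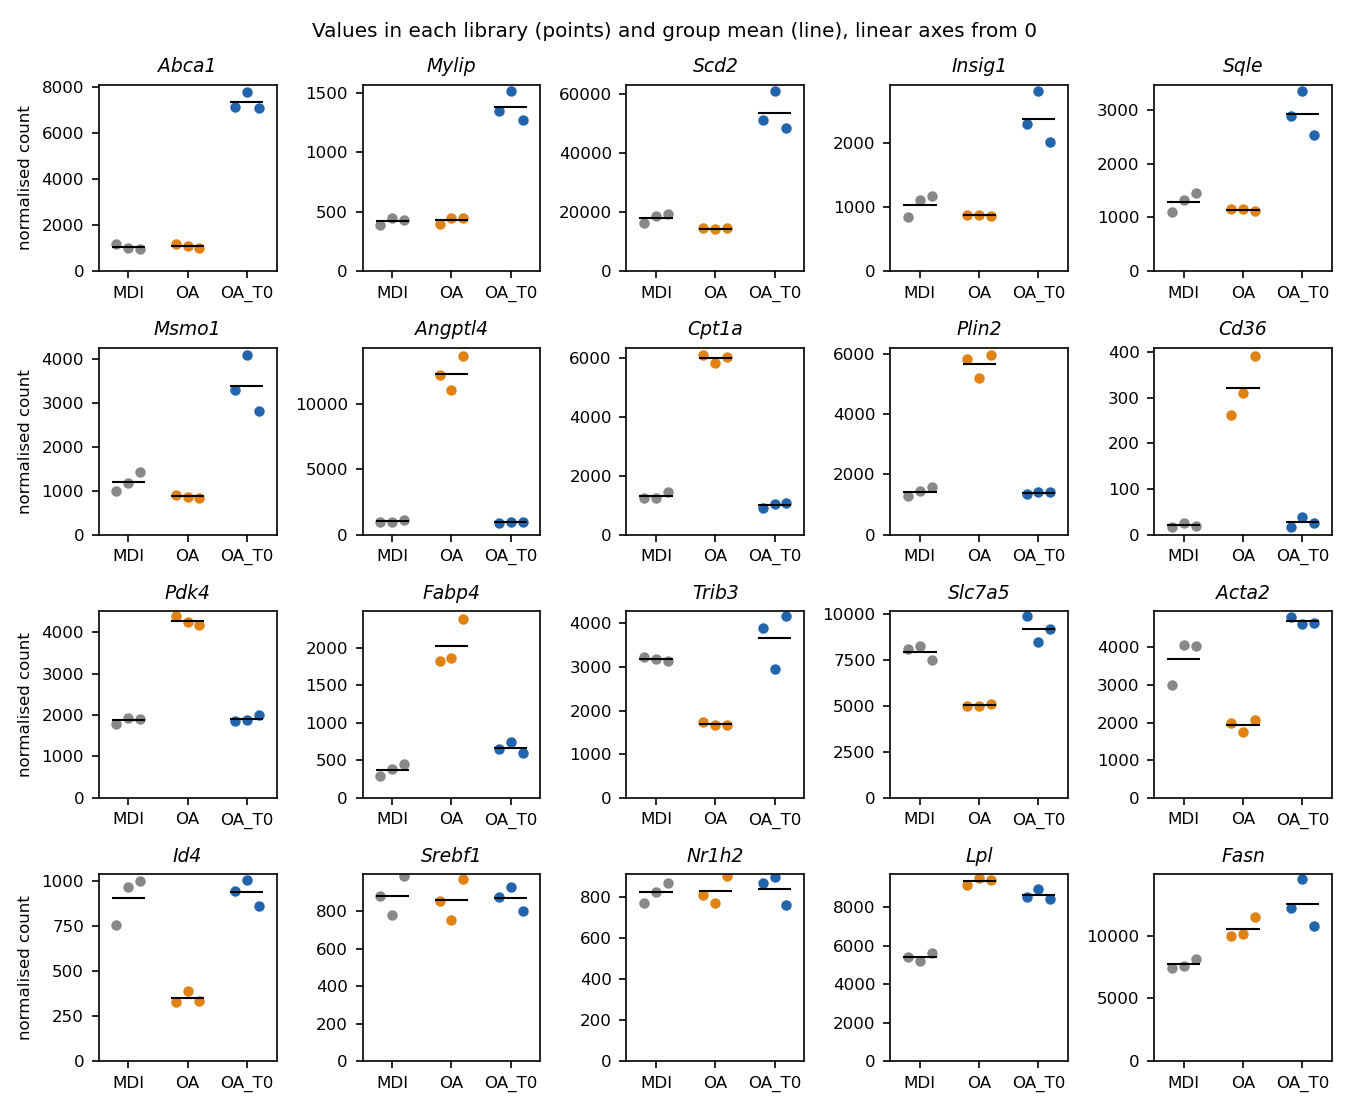
Normalised counts of 20 genes in each of the 9 libraries (points) with group means (lines), on linear axes that start at 0. OA_T0 points lie clear above OA for Abca1, Scd2 and Sqle, clear below for Angptl4, Cpt1a and Plin2, and among the OA points for Srebf1 and Nr1h2.

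Cholesterol synthesis genes rose almost as a whole. All 12 genes that lead from squalene synthase to cholesterol rose, with a median log2 fold change of 1.15. Of the mevalonate pathway, which makes the isoprene units, 8 of 9 genes rose with a median of 0.97. Of the 12, 11 passed in each of the 9 fits that left out 1 library, as did all 8 of the mevalonate pathway. Msmo1, a sterol methyl oxidase, stood at 907, 860.0 and 831 in OA and 3283, 4088 and 2804 in OA_T0. No library overlapped, and the mean was 3.92-fold higher (log2 fold change 1.95, SE 0.13, adjusted p = 1.14e-07). Fdps, which makes farnesyl pyrophosphate, stood at 444, 403 and 518 in OA and 1792, 2045 and 1551 in OA_T0, also without overlap and 3.95-fold higher (log2 fold change 1.98, SE 0.11, adjusted p = 3.31e-08). Sqle, squalene epoxidase, rose from 1154, 1151 and 1129 to 2877, 3357 and 2529.9 (log2 fold change 1.34, adjusted p = 5.22e-07). OA_T0_2 was the highest of the group for each of these 3 enzymes.

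Hmgcs1, at the entry to the pathway, makes HMG-CoA and stood at 2197, 2214 and 2092 in OA and 4011, 5417 and 3522 in OA_T0. It rose with no shared range (log2 fold change 0.97, SE 0.13, adjusted p = 1.28e-04), and Acat2, the first thiolase of the route, had a log2 fold change of 0.90. Idi1, Mvd and Mvk, which lie between Hmgcs1 and Fdps, had log2 fold changes of 1.48, 1.44 and 1.11. Ggps1, which draws farnesyl units off to geranylgeranyl pyrophosphate, was the 1 member that did not pass (log2 fold change 0.05). Past squalene, Lss and Cyp51, which close and demethylate the ring, had log2 fold changes of 1.15 and 1.15.

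Of 12 tested genes of sterol uptake and trafficking 4 rose and 1 fell, with a median of 0.03. These were 33.3% and 8.33% of the list, against 8.27% higher and 6.84% lower of all genes. Stard4, a sterol carrier, stood at 1204, 1149 and 1162 in OA and 1707, 2437 and 1621 in OA_T0 (log2 fold change 0.69, adjusted p = 0.00318), with every OA_T0 library above OA. Tmem97 rose by a log2 fold change of 0.34 and Scarb1, a lipoprotein receptor, by 0.33, while Lipa, the lysosomal acid lipase, fell by 0.32 (adjusted p = 0.00219). The lower count was 2 with OA_3 left out.

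Of 10 genes of SREBP and its processing 2 rose (20%, against 8.27% of all genes). Insig1, which holds the SREBP complex in the endoplasmic reticulum and is itself an SREBP target, stood at 876, 883 and 861 in OA and 2289, 2808 and 2011 in OA_T0. It rose 2.71-fold without overlap (log2 fold change 1.43, SE 0.12, adjusted p = 1.14e-06). Srebf2, which encodes the SREBP of cholesterol synthesis, stood at 2202, 1988 and 2335 in OA and 3599.6, 4285 and 3528 in OA_T0 (log2 fold change 0.80, SE 0.09, adjusted p = 2.72e-05), again without overlap. The other 8 members did not pass, and the list's median was 0.04.

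The promoters of 3 sterol lists, those of the mevalonate pathway, of synthesis from squalene and of uptake and trafficking, were searched for short sites in the 250 bases before the gene's start, on both strands, in promoters taken from RefSeq for GRCm38.p6, a later build than the mm9 of the submitters' notes. A promoter was found for 9949 of the tested genes. The site TCACNCCAC, a form of the sterol regulatory element, was present in 2 of 24 genes of these lists (8.33%), Hmgcs1 and Stard3, and in 115 of all 9949 (1.16%). The 24 include 8 of uptake and trafficking, a list in which most members did not rise, and Stard3 did not pass. Hmgcs1 is the called gene of the pair, and its window at chr13:119690190-119690246 (plus strand, written 5′ to 3′ along the gene, ending upstream of the start) is shown because it holds that site, marked in capitals 128 bases before the start, with no other searched motif overlapping it.
Hmgcs1: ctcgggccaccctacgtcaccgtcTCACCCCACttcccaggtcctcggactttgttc
The box CCAAT, a site of the factor NF-Y that works beside SREBP, was present in 6 of 7 mevalonate genes, 9 of 9 genes of synthesis from squalene and 7 of 8 of uptake and trafficking, among them Lipa, which fell. That is 22 of the 24 (91.7%), against 41.6% of all, and also in 85.0% of 20 mitosis genes. The LXR site known as DR4, AGGTCA repeated exactly with 4 bases between, was in 0 of the 9949 windows and the PPAR site DR1, the same repeat with 1 base between, in 5. A missing match says only that these letters are not in this window.

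The genes of fatty acid synthesis and desaturation rose in part. Of 9 tested genes of de novo synthesis 5 rose and 0 fell (median log2 fold change 0.40), and of 13 desaturases and elongases 8 rose and 0 fell (median 0.50). Acaca, acetyl-CoA carboxylase, stood at 3091, 3118 and 2840.4 in OA and 4348, 4609 and 4523 in OA_T0, and Mid1ip1, which activates it, at 1265, 1358 and 1365 in OA and 2606, 2232 and 2718 in OA_T0. No library overlapped for either (log2 fold change 0.58, adjusted p = 1.45e-05 and log2 fold change 0.92, adjusted p = 6.23e-07 in that order). Slc25a1, the mitochondrial citrate exporter, and Aacs, a cytosolic acetoacetyl-CoA synthetase, rose by 0.64 and 0.79 on the log2 scale. Fasn, fatty acid synthase, stood at 10004, 10142 and 11529 in OA and 12264, 14569 and 10787 in OA_T0, where OA_T0_3 fell among the OA values (log2 fold change 0.24, SE 0.09, adjusted p = 0.0881, and 0.0448 with OA_3 left out, 0.0137 with OA_T0_3 left out).

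The desaturases for polyunsaturated acids rose beside Scd1 and Scd2. Fads2, the delta-6 desaturase, stood at 2008, 1879.7 and 2069 in OA and 4462, 4936 and 4513 in OA_T0, and Fads1, the delta-5 desaturase, at 3473, 3399.8 and 3592 in OA and 5291, 5339 and 5157 in OA_T0. Neither overlapped (log2 fold change 1.22, adjusted p = 3.66e-08 and log2 fold change 0.59, adjusted p = 2.13e-06). Acsl3, an acyl-CoA synthetase of lipid droplets, stood at 1081, 1226 and 1100.1 in OA and 2605, 2746 and 2469 in OA_T0 and was 2.29-fold higher (log2 fold change 1.20, SE 0.07, adjusted p = 3.61e-08). Of 9 tested synthetases Acsl3 was the 1 that rose and Acsbg1 the 1 that fell, from 189, 162 and 212 to 31.0, 41.2 and 38.5 (log2 fold change -2.32, adjusted p = 1.85e-06). Each is 11.1% of that list, near the 8.27% higher and 6.84% lower of all genes. In phospholipid synthesis Pcyt2, of the ethanolamine route, rose by 0.93 and Lpcat4 by 0.51, while Lpcat1, a lysophosphatidylcholine acyltransferase, fell by 0.58 (adjusted p = 5.47e-05), with 9 of 12 not passing. The 2 higher and 1 lower were 16.7% and 8.33% of that list, against 8.27% and 6.84% of all genes.

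**Figure D3:**
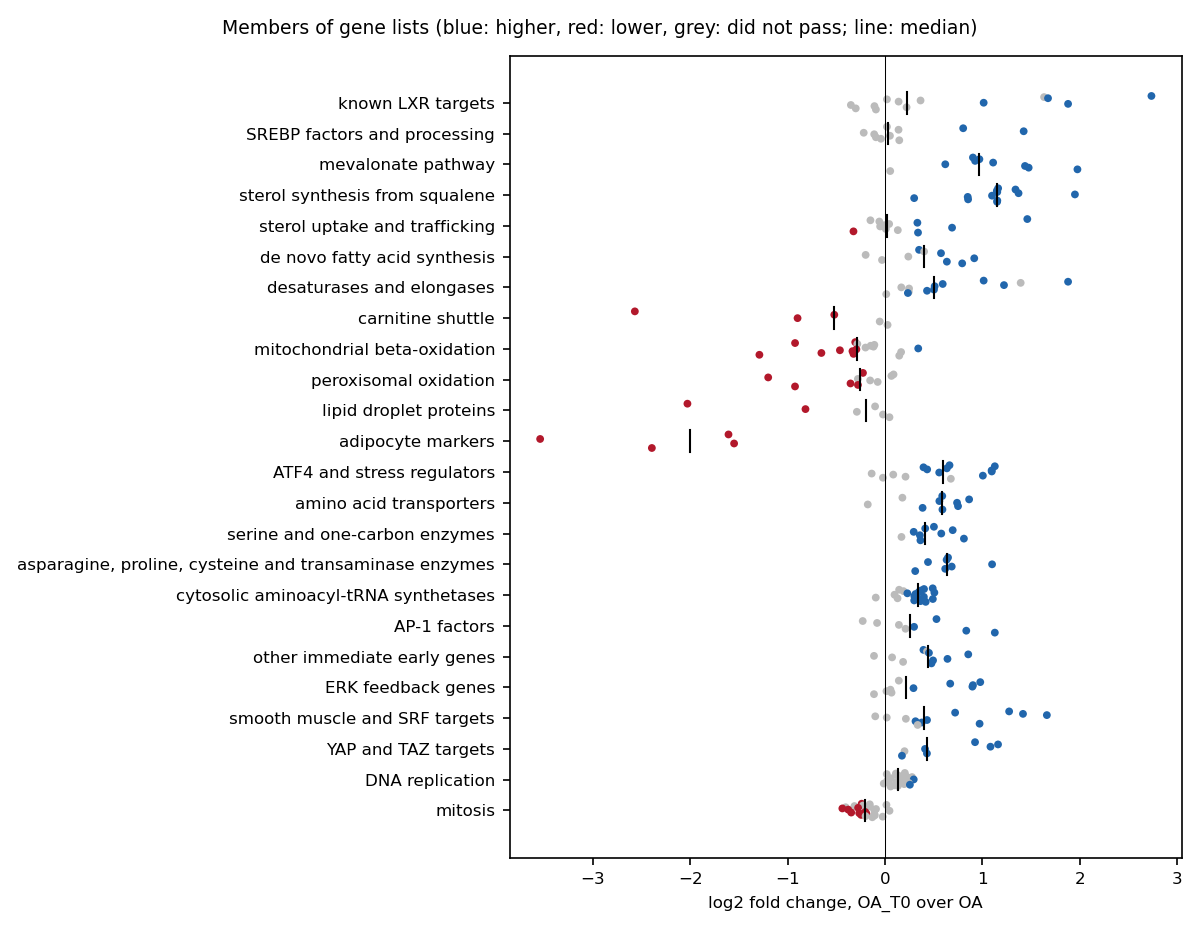
Log2 fold change of OA_T0 over OA for each tested member of 24 gene lists, with the list's median as a line. Blue members rose, red members fell and grey members did not pass. All 12 genes of sterol synthesis lie to the right of 0, and Cpt1a, in the carnitine shuttle, lies at -2.57.

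Many genes of fatty acid oxidation and storage fell, a few of them steeply. Angptl4, a secreted inhibitor of lipoprotein lipase, stood at 12196, 11032 and 13647 in OA and 909, 996 and 941 in OA_T0. In MDI it stood at 986, 925 and 1131. The OA_T0 mean was 13.0-fold below OA, with no overlap (log2 fold change -3.69, SE 0.08, adjusted p = 4.06e-13). Cpt1a, which admits long-chain fatty acids to mitochondria, stood at 6098, 5829.7 and 6050.2 in OA and 919, 1033 and 1080.1 in OA_T0 against 1258, 1245 and 1459 in MDI. It was 5.93-fold below OA, with no overlap (log2 fold change -2.57, SE 0.07, adjusted p = 5.56e-12). Plin2, the main droplet coat protein of such cells, stood at 5833, 5206 and 5981 in OA and 1350.2, 1406 and 1404 in OA_T0 against 1268, 1452 and 1569 in MDI. It was 4.09-fold below OA (log2 fold change -2.03, SE 0.08, adjusted p = 1.82e-10).

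These genes had been high in OA relative to MDI. That comparison and the one with T0901317 share the OA libraries, so their values are given only side by side. For OA over MDI the log2 fold changes were 3.60 (adjusted p = 5.90e-13) for Angptl4, 2.18 (adjusted p = 7.98e-11) for Cpt1a and 1.99 (adjusted p = 3.23e-10) for Plin2. For OA_T0 over MDI, which does not use the OA libraries for its means, they were -0.09 (adjusted p = 0.594), -0.39 (adjusted p = 0.0117) and -0.04 (adjusted p = 0.819) in the same order.

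In the carnitine shuttle 3 of 5 tested genes fell and 0 rose (median -0.52). Beside Cpt1a these were Slc25a20, the carrier across the inner membrane, from 611, 672 and 668 to 393, 363 and 296, and Cpt2, which releases the acyl group inside, from 947, 822 and 954 to 630.1, 691 and 578. Neither overlapped (log2 fold change -0.90, adjusted p = 3.25e-05 and log2 fold change -0.52, adjusted p = 0.00109). In mitochondrial beta-oxidation 8 of 16 fell (median -0.29) and 1 rose (6.25%, near the 8.27% of all genes). Acaa2, the last thiolase of the spiral, stood at 2212, 2089 and 2372 in OA and 862, 1002 and 866 in OA_T0, and Acadl, which starts it on long chains, at 3012, 2913 and 3082 in OA and 1595, 1576 and 1573 in OA_T0. Both fell without overlap (log2 fold change -1.29, adjusted p = 6.01e-08 and log2 fold change -0.92, adjusted p = 4.15e-08). Eci2 and Etfb, an isomerase and an electron carrier of the route, fell by 0.65 and 0.46. Echs1, the short-chain enoyl-CoA hydratase, was the 1 that rose (log2 fold change 0.34, adjusted p = 0.00987), and it had adjusted p = 0.0601 with OA_1 left out.

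Peroxisomal oxidation showed 5 of 10 lower and 0 higher (median -0.25). Pex11a, which drives peroxisome division, stood at 327, 372 and 344 in OA and 120.0, 149.8 and 189.5 in OA_T0, and Ech1, an enoyl-CoA isomerase, at 1944, 1806 and 2192 in OA and 1015, 1108 and 1000.0 in OA_T0. Both fell without overlap (log2 fold change -1.20, adjusted p = 5.66e-05 and log2 fold change -0.92, adjusted p = 7.81e-06). Cat, catalase, fell by 0.35. The count lower was 3 with OA_1, OA_T0_1 or OA_T0_3 left out.

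Of the PPAR regulators 3 of 6 tested rose and 0 fell. Pparg, which drives adipogenesis, stood at 927, 953 and 1014 in OA and 1217, 1143 and 1194 in OA_T0 and rose without overlap (log2 fold change 0.30, SE 0.06, adjusted p = 0.00558). Ppard, the widely expressed PPAR, stood at 705, 806 and 799 in OA and 833, 867 and 757 in OA_T0, with groups that overlapped (log2 fold change 0.09, adjusted p = 0.500). Ppara stood at 12.3, 4.03 and 9.03 in OA and 4.14, 5.03 and 3.08 in OA_T0, below the level tested. The coactivators Pprc1 and Ppargc1b rose by 0.28 and 1.37, the latter from 10.1, 10.7 and 7.02 to 34.1, 23.1 and 20.03, with adjusted p = 0.103 with OA_T0_1 left out.

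Of 12 adipocyte markers 10 were in the table and 4 reached the level tested. Those 4 fell, a count given as a description only, since low markers were not tested. Cd36, a fatty acid transporter, stood at 263, 309.9 and 391 in OA and 17.6, 39.2 and 26.2 in OA_T0 and 16.7, 26.1 and 18.03 in MDI. Fabp4, a fatty acid carrier, stood at 1825, 1862 and 2383 in OA and 647, 740.0 and 596 in OA_T0 and 289, 381 and 452 in MDI. For both, all OA_T0 values lay below all OA values (log2 fold change -3.54, SE 0.28, adjusted p = 6.33e-07 for Cd36, log2 fold change -1.61, SE 0.14, adjusted p = 2.13e-06 for Fabp4). Fewer cells that express such genes and less RNA in each cell cannot be told apart in bulk samples. Lipe, hormone-sensitive lipase, and Trarg1, which acts in glucose transporter traffic, fell by 1.55 and 2.40. The summed level of the 10 markers ran from 2544 to 3241 in OA, 744 to 925 in OA_T0 and 461 to 639 in MDI. Lpl, lipoprotein lipase, stood at 9155, 9512 and 9405 in OA and 8565, 8949 and 8439 in OA_T0, with OA_T0 below every OA library but a shift that did not pass (log2 fold change -0.11, SE 0.05, adjusted p = 0.167).

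Storage genes other than Plin2 moved less. Plin4, another droplet coat protein, fell from 735, 680.3 and 821 to 377, 531 and 374 (log2 fold change -0.82, adjusted p = 7.39e-04), and 4 of 6 tested droplet proteins did not pass. In triglyceride synthesis Gpam, which adds the first acyl chain, rose by 0.37 and Dgat2, which adds the last, by 0.61, while Agpat3 fell by 0.31. Of 11 tested members 2 rose (18.2%) and 1 fell (9.09%), against 8.27% and 6.84% of all genes. Dgat2 had adjusted p = 0.0399, and 0.0526 with MDI_1 left out, 0.0533 with MDI_2 left out, 0.173 with OA_2 left out, 0.0576 with OA_3 left out, 0.178 with OA_T0_1 left out, 0.0691 with OA_T0_3 left out. The higher count of that list was 1 without any of these 6 libraries. Pdk4, a kinase that shuts pyruvate dehydrogenase, stood at 4386, 4251 and 4172 in OA and 1864, 1892 and 1994 in OA_T0 and 1795, 1941 and 1915 in MDI. It fell without overlap (log2 fold change -1.16, SE 0.06, adjusted p = 4.66e-09), as did Pdk1 by 0.32, while the opposing phosphatase Pdp2 rose by 0.64.

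Among 16 adipogenic transcription factors 6 rose and 4 fell (median -0.01). The early factors Cebpb, at 3432, 2952 and 3600.5 in OA and 5341, 4072 and 4612 in OA_T0, and Cebpd, at 1846, 1606 and 2226 in OA and 2962, 3093 and 2586 in OA_T0, rose without overlap (log2 fold change 0.49, adjusted p = 0.00461 and log2 fold change 0.61, adjusted p = 0.00242). Cebpa, which acts later, stood at 404, 463 and 498 in OA and 383, 560.0 and 344 in OA_T0 with wide overlap (log2 fold change -0.11, adjusted p = 0.709). Ebf1 and Klf4 rose by 0.35 and 0.38. Those that fell, Ebf2, Klf5, Stat5a and Zfp423, did so by 0.43, 0.25, 0.38 and 0.49, and their count was 2 with MDI_1 or OA_T0_2 left out, 1 with OA_1, OA_2, OA_3 or OA_T0_1 left out, 0 with OA_T0_3 left out. Of 9 preadipocyte markers Pdgfra, a growth factor receptor of precursors, fell from 18137, 18160.0 and 18906 to 10780.0, 13738 and 10929 (log2 fold change -0.65, adjusted p = 1.53e-04). Dlk1 and Sox9 rose by 0.28 and 0.32, and Dlk1 did not pass without 5 of the libraries in turn, with adjusted p = 0.0645 with MDI_2 left out, 0.17 with OA_1 left out, 0.154 with OA_2 left out, 0.18 with OA_T0_1 left out, 0.115 with OA_T0_2 left out.

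RNA of the amino acid stress response rose. This response is led by ATF4, a factor made when amino acids run short or proteins misfold. ATF4 switches on amino acid import, amino acid synthesis and the charging of transfer RNA. Of 14 tested regulators 9 rose and 0 fell (median 0.60). Atf4 itself stood at 9382, 9128 and 9316 in OA and 15499, 13287 and 15388 in OA_T0 and 11968, 12381 and 11439 in MDI, with no overlap of OA_T0 and OA (log2 fold change 0.66, SE 0.07, adjusted p = 7.67e-06). Trib3, a pseudokinase that restrains ATF4, stood at 1749, 1674 and 1669.9 in OA and 3887, 2955 and 4162 in OA_T0 and 3234, 3176 and 3133 in MDI, and Chac1, which breaks down glutathione, at 761, 643 and 718 in OA and 1680.3, 1255 and 1633 in OA_T0. Both rose more than 1.5-fold in each OA_T0 library over the OA mean, and OA_T0_2 was the lowest of its group for both (log2 fold change 1.10, SE 0.09, adjusted p = 1.81e-06 for Trib3). Ddit3, a death-linked factor, rose by 0.64 and Sesn2, a leucine sensor, by 0.56.

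Amino acid import and synthesis genes rose as well. Of 9 amino acid transporters 7 rose and 0 fell (median 0.59). Slc7a5, a carrier of large neutral amino acids, stood at 4972, 5007 and 5085 in OA and 9902, 8440.1 and 9149 in OA_T0, and its partner Slc3a2 at 5539.9, 5406 and 5489 in OA and 9421, 8076 and 10083 in OA_T0. Neither overlapped (log2 fold change 0.86, SE 0.06, adjusted p = 4.12e-07 for Slc7a5). The lower count was 1 with OA_T0_2 left out. All 7 tested enzymes for asparagine, proline, cysteine and transamination rose (median 0.63). Cth, which makes cysteine, stood at 924, 938 and 883 in OA and 2116, 1667 and 2143 in OA_T0 and Asns, asparagine synthetase, at 7525, 7273 and 7538 in OA and 12158, 10853 and 12032 in OA_T0. Both were higher in each OA_T0 library than in any OA library (log2 fold change 1.10, adjusted p = 5.92e-07 and log2 fold change 0.65, adjusted p = 3.03e-06). Of 9 serine and one-carbon enzymes 8 rose, such as Mthfd2 of the mitochondrial folate cycle (log2 fold change 0.81) and Psph, the last step of serine synthesis (0.70).

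Transfer RNA charging genes rose by less but broadly, with 15 of 20 cytosolic synthetases higher and 0 lower (median 0.34). Gars, for glycine, stood at 6625, 6601 and 6860.1 in OA and 10085, 8595 and 9949 in OA_T0 and Aars, for alanine, at 12147, 12477 and 12521 in OA and 17924, 16005 and 18349 in OA_T0. Both rose without overlap (log2 fold change 0.51, adjusted p = 1.28e-04 and log2 fold change 0.49, adjusted p = 7.59e-05). Of 18 genes of endoplasmic reticulum chaperones and the unfolded protein response 2 rose, Herpud1 by 0.60 and Sdf2l1 by 0.40. The 2 that fell were Dnajc3, by 0.38, and Hsp90b1, by 0.23. Each count was 11.1% of the list, near the 8.27% higher and 6.84% lower of all genes. The higher count there was 1 with OA_1, OA_2, OA_T0_1 or OA_T0_3 left out, 4 with OA_T0_2 left out, and the lower 1 with OA_1, OA_2, OA_3, OA_T0_1 or OA_T0_3 left out.

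The site TGATGCAA, a core of the element bound by ATF4 with a C/EBP partner, was found on either strand in the promoters of 8 of 47 genes of these 5 lists (17.0%) and in 67 of all 9949 (0.673%). The 5 called genes with the smallest adjusted p are shown because they hold it, in capitals as these letters or their reverse complement. The windows are at chr2:119351025-119351080 (plus strand), chr11:120643820-120643875 (minus), chr19:43524676-43524731 (minus), chr8:111033706-111033761 (plus) and chr15:11399659-11399697 (minus) of GRCm38.p6, each written along its gene, with no other searched motif overlapping the site.
Chac1: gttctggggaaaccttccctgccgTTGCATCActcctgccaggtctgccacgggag
Pycr1: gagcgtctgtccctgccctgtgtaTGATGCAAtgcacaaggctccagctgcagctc
Got1: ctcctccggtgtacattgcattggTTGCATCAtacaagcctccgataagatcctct
Aars: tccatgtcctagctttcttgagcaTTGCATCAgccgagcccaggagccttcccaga
Tars: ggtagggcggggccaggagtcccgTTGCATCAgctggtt
The sites end 185, 95, 94, 104 and 7 bases before the start in that order. Chac1 breaks down glutathione, Pycr1 makes proline (log2 fold change 0.63), Got1 is a transaminase (0.69), and Aars and Tars charge transfer RNA for alanine and threonine (0.49 and 0.37). The other 3 with the site were Atf3, Slc7a11 and Nupr1, with log2 fold changes of 1.13, 0.56 and 0.21, of which Nupr1 did not pass.

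**Figure D4:**
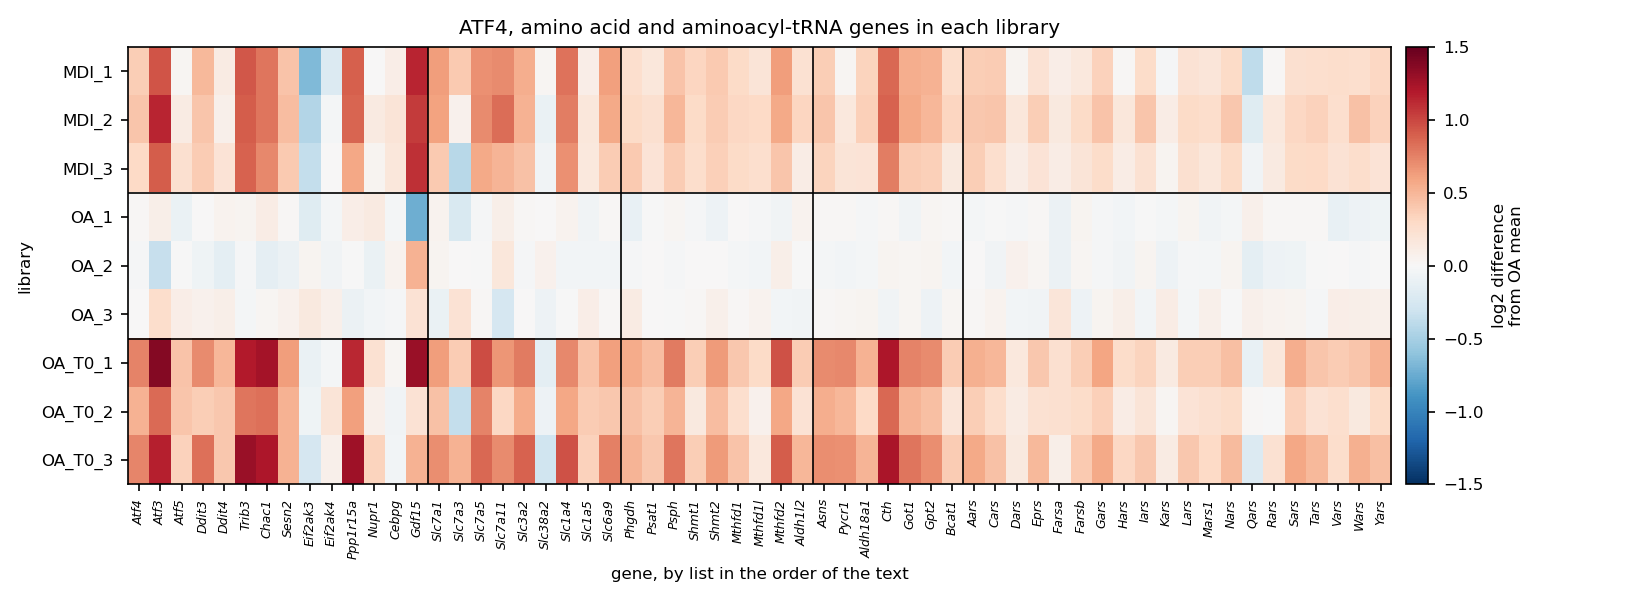
Difference of log2(value + 1) from the OA mean for the 59 tested genes of the 5 ATF4 and amino acid lists (columns) in the 9 libraries (rows), with colour from -1.5 to 1.5. OA_T0 rows are mostly red, most strongly for Atf3, Trib3, Chac1 and Cth, OA_T0_2 is the palest of them, and MDI rows are also mostly above OA.

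Genes that answer growth factor signals rose as well. Of 8 factors of the AP-1 family 4 rose, of 10 other immediate early genes 6 and of 10 feedback inhibitors of the ERK kinase 5, with 0 lower in each (medians 0.26, 0.44 and 0.22). Spry1, an inhibitor of receptor signalling, stood at 774, 730.3 and 789.7 in OA and 1506, 1336 and 1441 in OA_T0, and the ERK phosphatase Dusp6 at 412, 412 and 420.5 in OA and 862, 826 and 658 in OA_T0. Both rose, with no shared range (log2 fold change 0.90, SE 0.07, adjusted p = 8.29e-07 for Spry1). Egr1, an early zinc finger factor, stood at 3921, 4147 and 3894 in OA and 5397, 4978 and 5365 in OA_T0 and Jund at 635, 597 and 807 in OA and 1333, 1233 and 1060.0 in OA_T0 (log2 fold change 0.40, adjusted p = 4.07e-04 and log2 fold change 0.84, adjusted p = 1.91e-04). Myc rose by 0.48, Nr4a1 by 0.86 and Fos by 0.53. The AP-1 count was 2 without OA_T0_1. The AP-1 site TGANTCA was in 0 of 21 promoters of these early genes and in 5.34% of all.

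Contractile genes under serum response factor (SRF) and targets of YAP and TAZ, which answer cell stretch, rose in most members. Of 12 smooth muscle and SRF genes 8 rose and 0 fell (median 0.41), and of 7 YAP and TAZ targets 6 rose and 0 fell (median 0.43). Acta2, smooth muscle actin, stood at 1988, 1754 and 2076 in OA and 4811, 4611 and 4636 in OA_T0 and 2995, 4056 and 4029 in MDI. It was 2.42-fold above OA without overlap (log2 fold change 1.28, SE 0.10, adjusted p = 5.55e-07). Myl9, a myosin light chain, stood at 79.4, 75.1 and 48.2 in OA and 178, 169 and 188 in OA_T0, and Ccn1, a secreted matrix protein, at 2628, 2852 and 3012 in OA and 5582, 5296 and 5236 in OA_T0. No library overlapped for either (log2 fold change 1.42, adjusted p = 1.23e-04 and log2 fold change 0.93, adjusted p = 3.31e-06). Ccn2 and Ankrd1 rose by 1.16 and 1.08.

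Among TGF-beta and BMP genes 5 of 15 rose and 2 fell. Id4, a BMP-induced inhibitor of helix-loop-helix factors, stood at 328, 390.4 and 331 in OA and 947, 1003 and 863 in OA_T0 and 754, 968 and 999 in MDI (log2 fold change 1.42, SE 0.11, adjusted p = 5.22e-07). Its OA_T0 values did not overlap with OA. Tgfbr1, a receptor, and Tgfbi, a matrix protein, fell by 0.32 and 0.53. The higher count was 2 with OA_1 or OA_T0_1 left out, 3 with OA_2 left out.

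Matrix genes went both ways. Of 15 collagen chains 5 fell and 2 rose: the fibrillar chain Col3a1 went from 76899, 75566 and 80751 to 58066, 61098 and 57428 (log2 fold change -0.40, adjusted p = 0.00325) and Col12a1 fell by 0.46, while the basement membrane chains Col4a1 and Col4a2 rose by 0.24 and 0.26. Lower collagens numbered 3 with MDI_2 or OA_1 left out, 2 with OA_3, OA_T0_1 or OA_T0_3 left out, and higher 1 with MDI_2 or OA_T0_2 left out, 0 with OA_1, OA_2 or OA_T0_1 left out. Of 16 proteases and inhibitors 5 fell and 2 rose. Mmp3, stromelysin, stood at 153, 158 and 135 in OA and 34.1, 34.2 and 46.2 in OA_T0 and 42.8, 52.2 and 48.4 in MDI, and Mmp2, a gelatinase, at 10311, 9990.4 and 10754 in OA and 6858, 8234 and 7342 in OA_T0. Both fell without overlap (log2 fold change -1.95, SE 0.19, adjusted p = 7.06e-06 for Mmp3). Timp3, a protease inhibitor, and Adamts5, an aggrecanase, rose by 0.56 and 0.32.

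Cell cycle genes shifted by small amounts, and the counts leaned on single libraries. Ccnd1 and Ccnd2, the D cyclins of early G1, stood at 8119, 8727 and 8996 in OA and 11666, 11336 and 10397 in OA_T0 and at 13403, 14061 and 13268 in OA and 19218, 17947 and 18371 in OA_T0 and rose without overlap (log2 fold change 0.37, adjusted p = 0.00222 and log2 fold change 0.45, adjusted p = 1.37e-04). Cdkn2b, an inhibitor of their kinase, rose by 0.41 and Cdkn1b fell by 0.26. Of 24 mitosis genes 9 fell and 0 rose (median -0.20), such as the kinetochore protein Cenpf, from 6265, 6279 and 5401 to 4335, 4926 and 4001 (log2 fold change -0.44, adjusted p = 0.00172). The mitosis count was 5 with MDI_2 left out, 2 with OA_1, OA_T0_1 or OA_T0_3 left out, 3 with OA_2 left out, 15 with OA_T0_2 left out. Of 24 DNA replication genes 2 rose (8.33%, near the 8.27% of all genes), Cdc45 and Fen1 (median 0.14), and this count was 0 with MDI_2, OA_1, OA_2, OA_T0_1 or OA_T0_3 left out, 4 with OA_3 left out, 13 with OA_T0_2 left out. Cdc6, which loads the replicative helicase, stood at 607, 613 and 622 in OA and 819, 580.0 and 869 in OA_T0, where OA_T0_2 lay below OA (log2 fold change 0.28, adjusted p = 0.118, and 0.00104 with OA_T0_2 left out).

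Interferon-stimulated genes spread widely within each group. As the mean log2 difference of 20 genes from the OA mean, the OA libraries stood at 0.56, -0.43 and -0.12 and the OA_T0 libraries at -0.74, -1.53 and 0.40. OA_T0_3 lay among the OA libraries and the other 2 below all of them. Of the 20 genes 1 fell (5%, against 6.84% of all genes), and the list's median was -0.62. This was Gbp2, a guanylate-binding GTPase, from 591, 425 and 453 to 266, 183 and 418 (log2 fold change -0.83, adjusted p = 0.0153). The count was 0 with OA_1 or OA_T0_1 left out, 18 with OA_T0_3 left out. Antigen presentation by MHC class I showed 1 of 9 lower (11.1%, against 6.84% of all genes), the chaperone Tapbp (log2 fold change -0.35, adjusted p = 0.00831). That count was 0 with OA_1 or OA_T0_1 left out, 3 with OA_T0_3 left out.

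**Figure D5:**
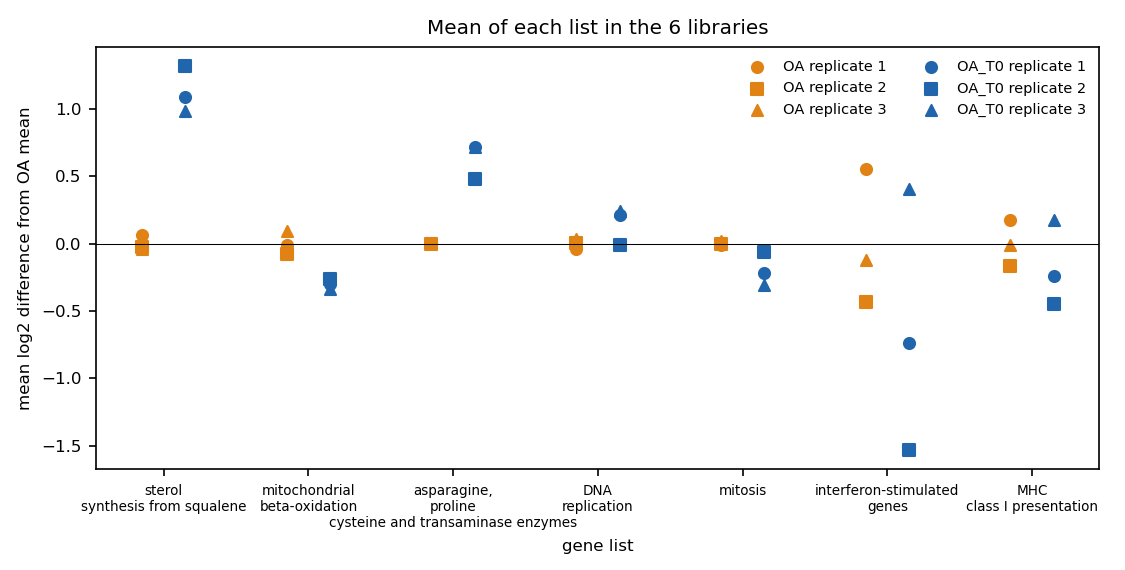
Mean difference from the OA mean, in log2(value + 1), of 7 gene lists in the 3 OA libraries (orange) and the 3 OA_T0 libraries (blue), with a marker shape for each replicate number. OA_T0 lies apart from OA for sterol synthesis, beta-oxidation and the amino acid enzymes, while interferon-stimulated genes spread from -1.53 to 0.56 with OA_T0_3 among the OA libraries.

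Chemokine and NF-kB genes split, with 5 of 15 higher and 4 lower. Csf1 and Lif, secreted growth factors, rose by 0.42 and 1.03, while Nfkbia, the inhibitor of NF-kB, fell from 1164, 1002 and 1246 to 776, 827 and 777 (log2 fold change -0.51, adjusted p = 0.00308) and Vcam1, an adhesion molecule, by 0.33. The higher count was 3 with OA_3 or OA_T0_1 left out, and the lower 2 with OA_T0_1 left out. Of 18 NRF2 antioxidant genes 5 rose (27.8%) and 1 fell (5.56%), against 8.27% and 6.84% of all genes. The higher count was 3 with OA_2 left out, 2 with OA_T0_1 left out. Hmox1, heme oxygenase, stood at 1112, 1069 and 1265 in OA and 1765, 1405 and 1535 in OA_T0 and rose without overlap (log2 fold change 0.45, adjusted p = 0.00258).

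Of 16 genes of glucose transport and glycolysis 3 passed (18.8%), close to the 15.1% of all genes tested. Of these 2 rose and 1, Gpi1, fell (adjusted p = 0.0329), and the list's median was -0.12. The lower count was 0 with MDI_2, OA_3, OA_T0_1 or OA_T0_3 left out, 2 with MDI_3 or OA_1 left out, 3 with OA_T0_2 left out. Slc2a1, the basal glucose transporter, stood at 1389, 1312 and 1423 in OA and 1907, 1897 and 1773 in OA_T0 and Hk2, a hexokinase, at 855, 849 and 843 in OA and 1484, 1173 and 1468 in OA_T0. Both were higher in each OA_T0 library than in any OA library (log2 fold change 0.44, adjusted p = 1.60e-04 and log2 fold change 0.69, adjusted p = 1.41e-04). Among HIF targets Vegfa and Adm, both secreted, rose by 0.55 and 0.85 and the mitophagy receptors Bnip3 and Bnip3l fell by 0.51 and 0.45. Igf1, a growth factor, stood at 617, 615 and 599 in OA and 278, 353 and 248 in OA_T0 and fell without overlap (log2 fold change -1.07, SE 0.13, adjusted p = 6.65e-05). Sgk1, a kinase induced by glucocorticoids, and the metal-binding Mt2 rose by 0.56 and 0.67, in a list of 14 glucocorticoid and cAMP targets with 5 higher and 3 lower. Those counts were, for higher, 3 with OA_1 left out, 2 with OA_2 or OA_T0_1 left out, and for lower, 0 with OA_1 or OA_T0_3 left out, 1 with OA_2, OA_3 or OA_T0_1 left out.

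Of 21 nuclear respiratory chain subunits 2 rose (9.52%, near the 8.27% of all genes), Sdhb and Cyc1 (log2 fold change 0.29 and 0.24), a count that was 0 with OA_1, OA_2 or OA_T0_1 left out, and 0 of 9 mitochondrially encoded subunits passed. Of 15 clock genes 3 rose (20%, against 8.27% of all genes) and 0 fell. The higher count was 0 with OA_1 or OA_T0_1 left out, 1 with OA_2 or OA_T0_3 left out. None of 4 tested Wnt ligands and antagonists passed.

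Outside the lists, Megf10, an engulfment receptor, was among the largest rises, at 63.8, 42.9 and 63.2 in OA and 210.0, 179 and 237 in OA_T0 (log2 fold change 1.88, SE 0.17, adjusted p = 3.91e-06). Ear10, a secreted ribonuclease, rose from 14.7, 29.2 and 18.6 to 62.8, 57.3 and 55.7. Among the largest falls, Htra3, a serine protease, stood at 453, 384 and 475 in OA and 114, 136 and 123 in OA_T0 (log2 fold change -1.80, SE 0.13, adjusted p = 3.07e-07). Spon2, a secreted matrix protein, fell by 1.93, the keratin Krt13 by 1.65 and the semaphorin receptor Plxna4 by 2.05. These 6 genes were picked among those that did not overlap between OA and OA_T0, so their lack of overlap is not a result.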

How the data were processed

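The authors deposited 1 table with a signal per gene and library, normalised counts that are not whole numbers. Per the submitters' processing notes CASAVA 1.8.2, TopHat, HTSeq, DESeq2 and the build mm9 were used, with no role given. Between 5 and 50 steps of 1 fragment, 62.3% to 68.8% of values were whole within 0.05 of a step, so the values cannot be turned back to reads and no count test was used. Depth is the total divided by the step, an estimate that takes the step as 1 fragment. All 28965 symbols were used as given.

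Values were taken as log2(value + 1), which understates changes of low genes. The 15002 genes with a mean of at least 10 entered 1 limma fit (version 3.58.1, R 4.3.3) of all 9 libraries from MDI, OA and OA_T0, which pools their spread and follows its trend on the mean. The two-sided p-values of OA_T0 against OA were adjusted over all 15002 genes by the Benjamini-Hochberg method, at a threshold of 0.05. The fit was tested on simulated data. Folds are ratios of group means.

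The genes and the 62 gene lists were chosen with earlier results of these data known, so no list is independent support. Of 724 list entries 702 were found and 615 tested; the other 22 were not analysed here. Lists share genes. Named genes were a fixed set around LXR, SREBP, PPAR, ATF4 and the cell cycle, from each list the called members with the lowest adjusted p (at most 4), called members that moved against their list, and the 12 largest non-overlapping rises and falls with a mean of at least 50 in the higher group. The members named for not passing (Ggps1, Nupr1) or for holding a site (Tars), and Scarb1, fall outside that rule and were chosen after their values were seen. Some genes that the rule names are not reported here. Alternatives changed the pseudocount (0.5, 5), the filter (none, 50), the scaling (quantiles, equal totals), the fit (OA and OA_T0 alone, replicate block, robust variance) and the libraries left out.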

Additional observations from a re-analysis of the deposited data

How the results depend on the processing

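None of the 2266 calls changed sign under any alternative that tested it. In 2220 of them the groups did not overlap, which nearly fixed this outcome. For those genes only the quantile and equal-total scalings could have reversed the sign. The counts higher and lower were 1237 and 1021 with a pseudocount of 0.5, 1249 and 1040 with 5, 1289 and 1039 with a filter at 50, 1247 and 1207 after quantile normalisation, 1045 and 1181 with equal totals, 1073 and 889 from OA and OA_T0 alone and 1281 and 1057 with robust variance. With no filter they were 850 and 620. With OA replicate 1 and OA_T0 replicate 3 dropped together they were 524 and 402. Leaving out 1 library gave 580 to 1443 higher and 474 to 1239 lower. The cause of each shift was not tested.

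Deviations of same-numbered OA and OA_T0 libraries from their group means correlated at -0.08, 0.03 and -0.12. With 3 libraries a group, these values cannot show whether same-numbered libraries were prepared together. With the replicate block 1095 genes were higher and 916 lower. Of the main lists, LXR targets lower numbered 1 with equal totals and 0 to 1 when 1 library was left out, and beta-oxidation genes higher numbered 0 with OA replicate 1 and OA_T0 replicate 3 dropped together and 0 to 1 when 1 library was left out. Genes without a call changed sign near 0. Srebf1 was at a log2 fold change of -0.012 and Nr1h2 at -0.0059 after quantile normalisation. With 1 library left out, Srebf1 ran from -0.072 (OA replicate 2) to 0.11, Nr1h2 from -0.026 (OA replicate 2) to 0.097, Nr1h3 from -0.49 to 0.0070 (OA_T0 replicate 3) and Cebpa from -0.32 to 0.031 (OA_T0 replicate 3). Nr1h3 was at 0.028 with that library and OA replicate 1 dropped. Depth limits genes near the floor, such as Abcg1.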

Other observations

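The genes named here fall outside the rule for named genes and were chosen after their values were seen. Other genes of lipid and sterol handling rose with T0901317. Gramd1b, which carries cholesterol from the plasma membrane to the endoplasmic reticulum, stood at 483, 491 and 461 in OA and 1069.8, 972 and 1160.2 in OA_T0 (log2 fold change 1.15, adjusted p = 2.49e-07), and Lrp8, a lipoprotein receptor that Mylip marks for breakdown, at 201, 207 and 179.6 in OA and 344, 383 and 357 in OA_T0 (log2 fold change 0.88, adjusted p = 3.85e-05). Oxct1, which burns ketone bodies, stood at 5137, 5305 and 5054 in OA and 9042, 9116 and 8432 in OA_T0 (log2 fold change 0.78, adjusted p = 1.48e-06). For each of these 3 genes all OA_T0 values lay above all OA values. Ucp2, a mitochondrial carrier that responds to fatty acids, stood at 3274, 2851 and 3503 in OA and 1301, 1387 and 1287 in OA_T0 and 1327, 1339 and 1477 in MDI (log2 fold change -1.27, adjusted p = 3.81e-08). Ephx2, which hydrolyses fatty acid epoxides, and the Kruppel-like factor Klf11 fell by 1.25 and 1.19, again without overlap.

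RNA of several genes for secreted proteins changed. Ptx3, a pentraxin of innate immunity, stood at 13431, 15494 and 14979.6 in OA and 33233, 27400.5 and 30037 in OA_T0 and rose by 1.04 (adjusted p = 6.23e-07). Selenop, a selenium carrier, stood at 10063, 10567 and 10938 in OA and 5361, 6281 and 5127 in OA_T0 and Thbs2, a matrix protein that restrains vessel growth, at 5547, 5113 and 5463 in OA and 2658, 3033 and 2729 in OA_T0. Both fell without overlap, by 0.92 and 0.94. Prl2c2, a growth factor of the prolactin family, fell from 6465, 5939 and 6201 to 2233, 2195 and 2362 (log2 fold change -1.45, adjusted p = 2.25e-10), and its near-identical paralog Prl2c3 by 1.55, so the division of their reads is uncertain. Prg4, lubricin, and Ogn, osteoglycin, fell by 0.95 and 0.96.

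Enzymes and regulators outside the lists moved by similar amounts. Gda, guanine deaminase, stood at 2908, 2827 and 2533 in OA and 838, 1010.4 and 846 in OA_T0 and 1700.3, 1437 and 1504 in MDI, so its OA_T0 values lay below both other groups. Man2b1, a lysosomal mannosidase, stood at 3175, 3055 and 3398 in OA and 1427, 1403 and 1545 in OA_T0 (log2 fold change -1.14, adjusted p = 1.64e-08), and Cyp26b1, which breaks down retinoic acid, fell by 1.38. Bmf, which promotes cell death, fell by 1.34, while Gadd45a, a stress-induced growth brake, rose from 454, 366 and 383 to 947, 693 and 1030.0 (log2 fold change 1.13, adjusted p = 2.62e-05). Hbegf, a ligand of the EGF receptor, rose by 0.86, and the cytoskeletal Zyx and Akap12 by 0.78 and 0.89. The homeobox factor Irx1 stood at 1017, 1033 and 1111 in OA and 2238, 2068 and 2083 in OA_T0 and rose without overlap (log2 fold change 1.01, adjusted p = 6.40e-07).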
